A study of Mus musculus with 8 samples.

Results

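Fabp1, Fabp2, Mttp, Sis, Lct, Anpep, Alpi, Slc5a1 and Slc2a2 are 9 genes through which villus enterocytes digest and take up food. They were picked as a list of symbols with earlier results of these data known, no measured value enters the rule, and each symbol matched 1 of the 53801 genes of the count table. They are described here in Paneth cells sorted from mice with and without the histone methyltransferase Mll1 (gene Kmt2a). Viable EpCAM+ Cd24+ cells were sorted from small intestinal crypts of 4 β-catenin GOF; Mll1+/- mice (controls 1 to 4) and 4 β-catenin GOF; Mll1-/- mice (knockouts 1 to 4), and RNA of 300 cells per sample was amplified by Smart-seq2, which copies polyadenylated RNA and multiplies it by PCR. Both genotypes carried a β-catenin allele that loses an exon on recombination and gains function, and the controls had 1 deleted Mll1 allele, so no group was wild type. Recombination was driven by Lgr5-EGFP-IRES-CreERT2, a tamoxifen-inducible Cre expressed from the Lgr5 promoter in stem cells, so that their progeny inherit the recombined alleles. The study describes this driver as mosaic between crypts, and its staining for Mll1 in the β-catenin GOF knockouts as negative in crypt cells, Paneth cells included. Mice received 1 mg tamoxifen on 3 days at an age of 4 to 6 weeks and were examined 10 d after induction. The methods paragraph on the sorting names the Mll1 genotypes without β-catenin GOF, and the genotypes used here are those of the sample labels.

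An enterocyte is the absorptive cell of the villus. Enzymes anchored in its brush border cut sugars, peptides and phosphate esters, transporters carry the products across the membrane, and fatty acids taken up from the gut are bound by small cytosolic proteins, rebuilt into fat and packed onto apolipoprotein B as chylomicrons. These genes are known to rise as cells leave the crypt, and many are also graded along the length of the intestine. Paneth cells sit at the crypt base and secrete lysozyme and defensins, so enterocyte transcripts are minor in them.

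The libraries held between 13557350 and 14380240 counts in the controls and between 13037832 and 13554171 in the knockouts. The labelled cell type was borne out by its markers: 9 Paneth genes (Lyz1, Mmp7, Ang4 and others) summed to between 250378 and 534120 normalized CPM (counts scaled to the library size, corrected by its TMM factor) in the controls and to between 249440 and 708593 in the knockouts. The 9 enterocyte genes together reached 126 to 311 CPM in the controls and 48.4 to 206 CPM in the knockouts. Of 6 immune markers, 5 had at most 3 counts in every library, and Ptprc, which codes for CD45, had 201, 106, 43 and 37 counts in the controls and 185, 157, 11 and 32 in the knockouts. Of 5 stromal markers, the endothelial gene Pecam1 had 41 to 85 counts and the other 4 at most 10. The immune list summed to between 1.29 and 12.8 CPM and the stromal list to between 3.55 and 6.93 CPM over the libraries. Kmt2a itself had 719, 469, 268 and 284 counts in the controls and 523, 447, 328 and 468 in the knockouts (log2 fold change -0.06, SE 0.24, edgeR adjusted p = 0.995); counts of the whole gene take in undeleted exons and check nothing of the deletion. Knockout 3 stood apart with the lowest TMM factor (0.632 against up to 1.34), 19662 genes with a count and 2.04% mitochondrial counts, against 3.26 to 8.78% in the others. In RNA of pooled cells, fewer cells of a type and less RNA per cell cannot be told apart.

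The levels of the 9 genes spanned several orders of magnitude per length. Fabp1, which codes for liver-type fatty acid binding protein, had a mean of 218 CPM per kb of exon over the 8 libraries (SD 133). Fabp2, the intestinal-type fatty acid binding protein, followed with 27.4 CPM per kb (SD 12.2). Fabp1 was above Fabp2 in 8 of 8 libraries, although their ranges over libraries overlapped. Next on this per-kb scale came the aminopeptidase gene Anpep (3.75, SD 1.30), the sodium-coupled glucose transporter gene Slc5a1 (2.63, SD 1.00), the sucrase-isomaltase gene Sis (1.51, SD 1.23) and Mttp (1.40, SD 0.545), whose product loads lipid onto apolipoprotein B. Fabp2 lay above Anpep in 8 of 8 libraries, and their ranges did not overlap. Sis and Mttp could not be ordered: Sis was the higher in 3 of 8 libraries. The intestinal alkaline phosphatase gene Alpi (0.357, SD 0.390), the basolateral glucose transporter gene Slc2a2 (0.0487, SD 0.0411) and the lactase gene Lct (0.0236, SD 0.0269) came last, each with a library at 0 counts. A count of 3 corresponded to between 0.172 and 0.352 CPM, depending on the library, so Lct and Slc2a2 lay near the limit of detection.

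**Figure D1:**
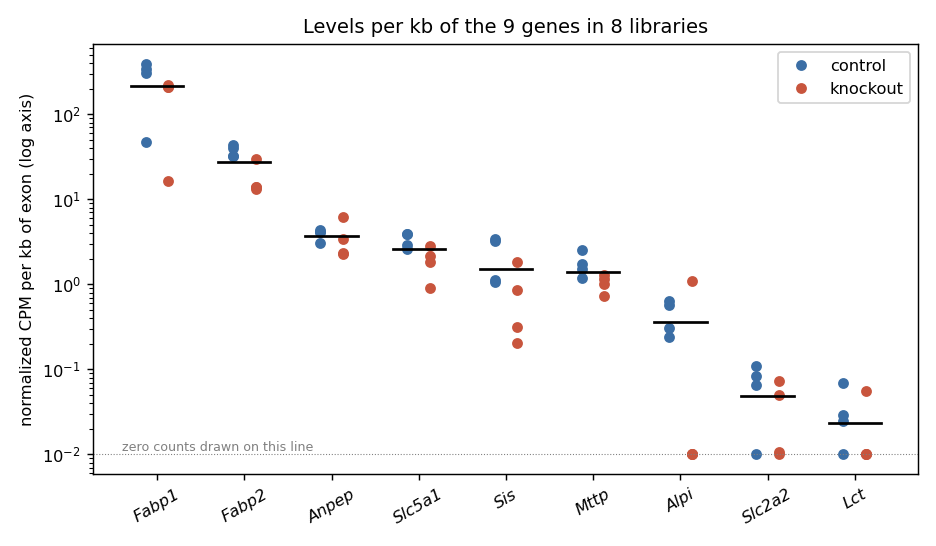
Normalized CPM per kb of exon (log axis) of the 9 genes in each of the 8 libraries, with blue points for controls, red points for knockouts and black bars for the mean over all libraries. Libraries with 0 counts are drawn on the dotted line. Fabp1 and Fabp2 lie highest, at means of 218 and 27.4 CPM per kb, and Slc2a2 and Lct lowest.

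Between the genotypes, Fabp2, Sis, Slc5a1, Mttp, Fabp1 and Anpep all had a lower fitted level in the knockouts, with log2 fold changes from -1.44 to -0.14, but none passed the test. In edgeR's quasi-likelihood fit over all 13439 genes with enough counts, 6 of the 9 genes were tested and 0 met both limits for a call (adjusted p up to 0.05, log2 fold change beyond 0.5 either way), where 0.186% of all genes tested did and 0.0298% did as lower in the knockouts. The other genes, Lct, Alpi and Slc2a2, were too low to be tested. The 6 log2 fold changes were all negative, with a median of -0.75, while over all genes tested the median was 0.0085 and 49.1% were negative. At an unadjusted p under 0.05 there were 4 of the 6, all lower in the knockouts (Fabp2, Mttp, Sis and Slc5a1), where 6.88% of all genes tested passed and 2.53% passed in that direction. Fabp2 was the 1 gene of the 9 whose groups did not overlap, which held for 4.52% of all genes tested and, as lower in the knockouts, for 1.93%. An exact permutation test on 4 against 4 libraries cannot go below p = 0.0286.

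Summed markers of some other crypt cells also lay lower in the knockouts, with ranges that overlapped or nearly met. The 6 stem cell markers (Lgr5, Olfm4 and others) summed to 1520, 1115, 703 and 1410 CPM in the controls and to 634, 743, 273 and 952 CPM in the knockouts. The 8 enteroendocrine markers summed to between 215 and 818 CPM in the controls and between 45.3 and 215 CPM in the knockouts, and the 5 tuft cell markers to between 200 and 460 CPM and between 82.9 and 297 CPM. The 7 goblet markers covered like ranges (1784 to 4288 and 1664 to 4046 CPM). The 6 proliferation markers went the other way, with 145, 58.6, 105 and 74.1 CPM in the controls and 151, 220, 78.1 and 165 CPM in the knockouts, 3 of which lay above every control. All 32 of these markers were tested in the same fit and 0 were called. The part of these cells in the differences of the enterocyte genes was not tested.

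**Figure D2:**
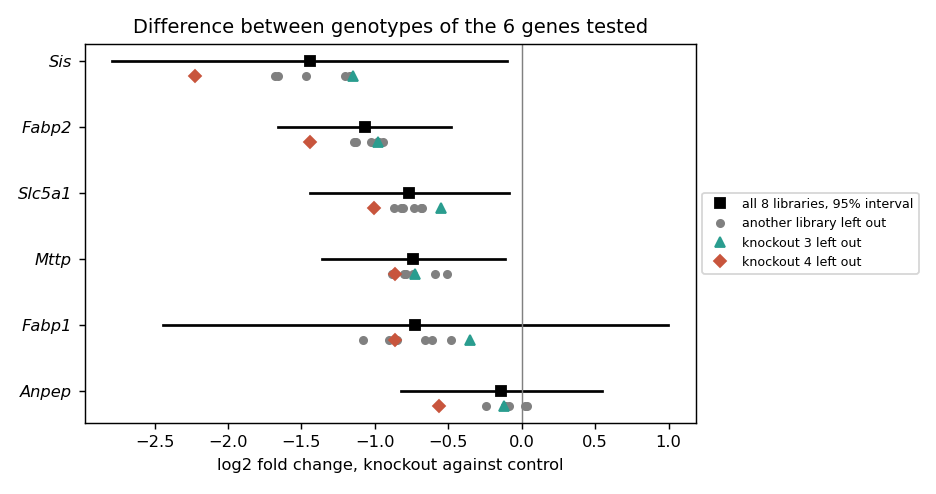
Log2 fold change, knockout against control, of the 6 genes tested (black squares) with the 95% interval of the edgeR fit over 8 libraries, and the same fold change with knockout 3 (green triangles), knockout 4 (red diamonds) or another library (grey points) left out. All 6 squares lie below 0, from -0.14 for Anpep to -1.44 for Sis. Leaving out knockout 4 moves Sis to -2.22, Fabp2 to -1.44 and Anpep to -0.57.

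Fabp2 carried the largest difference for its error. It lies on the forward strand of chromosome 3 (mm10, 122895072 to 122899506; ENSMUSG00000023057). Its level was 38.7, 31.5, 42.3 and 30.8 CPM in the controls and 12.7, 13.6, 13.4 and 28.4 CPM in the knockouts, which rest on 617, 397, 471 and 390 counts and on 214, 236, 114 and 469 counts. Every knockout lay below every control, 3 of them at under 14 CPM, while knockout 4, at 28.4 CPM, was close to the lowest control. The means were 35.8 ± 5.59 CPM (SD, n = 4) in the controls and 17.0 ± 7.62 CPM (SD, n = 4) in the knockouts (log2 fold change -1.07, SE 0.27, 95% interval -1.66 to -0.48, edgeR adjusted p = 0.279). The exact permutation test, two-sided, gave its smallest possible p, 0.0286. Fabp2 passed both limits with DESeq2's Wald test (adjusted p = 0.0422) and limma-voom with sample quality weights (adjusted p = 0.0294). It also passed them with no filter on low counts (edgeR adjusted p = 0.00156) and when knockout 4 was left out (log2 fold change -1.44, edgeR adjusted p = 0.0238). Over all the alternatives its adjusted p ranged from 0.00156 to 0.592.

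Fabp1 behaved differently from its relative. Fabp1 lies on the forward strand of chromosome 6 (71199827 to 71205023; ENSMUSG00000054422), and its product binds fatty acids and bile acids. It reached 218, 186, 169 and 26.2 CPM in the controls and 115, 123, 9.16 and 116 CPM in the knockouts. Control 4 and knockout 3 were far below the rest, with 332 and 78 counts against at least 1887 in every other library, and the other 3 knockouts lay below the other 3 controls. The means were 150 ± 85.0 CPM in the controls and 90.7 ± 54.4 CPM in the knockouts (SD, n = 4 each; log2 fold change -0.72, SE 0.76, 95% interval -2.44 to 1.00, edgeR adjusted p = 0.945), so the groups overlapped. With control 4 left out the log2 fold change was -1.08 (edgeR adjusted p = 0.885), and with knockout 3 left out it was -0.35. The groups no longer overlapped without control 4, a result favoured by leaving out the lowest control of Fabp1. Over all genes tested, whose values did not pick control 4, the share was 7.75%, and 3.59% as lower in the knockouts. Fabp1 had 5.65, 5.90, 4.01 and 0.851 counts for each Fabp2 count in the controls and 9.02, 9.05, 0.684 and 4.08 in the knockouts. The ratio was highest in knockouts 1 and 2 and fell under 1 only in control 4 and knockout 3.

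The bases before the starts of both binding-protein genes are shown, and their part in the unlike patterns across libraries was not tested. They are RefSeq promoter sequences of GRCm38.p6, read 5′ to 3′ and ending before the first annotated exon base, with matches on either strand in capitals. The letters searched were AGATAA or TGATAA for Gata factors, TTTATG or TTTATA for Cdx factors, GTTAAT as one side of an Hnf1 site, CAAAGT as one side of an Hnf4 site, and TATAAA as the core of the box before many starts. The last is the second Cdx motif read on the other strand. Each of its matches is therefore also a Cdx match at the same bases. In the 250 bases before the start, 16.6%, 20.9%, 6.43%, 12.6% and 12.4% of the 32851 promoters held these 5 groups, in this order, and 2, 4, 2, 3 and 3 of the 9 genes did.
Fabp1, chr6:71199629-71199826, forward strand: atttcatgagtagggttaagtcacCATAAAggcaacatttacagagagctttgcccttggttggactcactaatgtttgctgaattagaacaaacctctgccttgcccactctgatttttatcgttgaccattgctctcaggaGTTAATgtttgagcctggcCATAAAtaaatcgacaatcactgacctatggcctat
Fabp2, chr3:122894822-122895071, forward strand: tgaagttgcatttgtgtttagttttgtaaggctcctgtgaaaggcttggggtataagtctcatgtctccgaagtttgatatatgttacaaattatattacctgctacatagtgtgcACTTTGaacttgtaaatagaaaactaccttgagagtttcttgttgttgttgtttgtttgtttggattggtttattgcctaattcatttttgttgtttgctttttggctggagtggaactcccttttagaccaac
Fabp1 held TTTATG 2 times, at 226 and 88 bases before its RefSeq start, and GTTAAT at 107 bases. It also held TTTATA, which reads TATAAA on the other strand, at 30 bases. That match lies in the last stretch before the RefSeq start, which an annotated exon covers and which is not printed. Fabp2 held a single match, CAAAGT at 134 bases. These are matches of letters and show no binding.

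Mttp, the lipid loading gene, had 15.5, 10.9, 7.45 and 9.47 CPM in the controls and 7.25, 4.48, 6.23 and 8.07 CPM in the knockouts. Control 3 was the 1 control that lay below a knockout, for Mttp as for Slc5a1. Without it the groups of Mttp and Slc5a1 did not overlap, which follows from the choice of that library, and those of Fabp2 stayed apart. Over all genes tested, whose values did not pick control 3, the share was 7.13%, and 3.31% as lower in the knockouts. The log2 fold change was -0.74 (SE 0.29, 95% interval -1.36 to -0.11, edgeR adjusted p = 0.617, exact permutation p = 0.0571). Mttp lies on the reverse strand of chromosome 3 (138089854 to 138144968; ENSMUSG00000028158) and shares 7.36% of its exon bases with Trmt10a on the opposite strand. Since the strand setting of the counting was not given, a part of its counts could belong to that gene.

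Among the sugar genes, Sis had the lowest fitted fold change of the 6. Its enzyme splits sucrose and the branch points of starch. Sis had 8.40, 7.93, 25.4 and 24.4 CPM in the controls and 6.47, 2.35, 1.53 and 13.5 CPM in the knockouts. Controls 1 and 2 lay between knockout 1 and knockout 4, while controls 3 and 4 were above all knockouts. The log2 fold change was -1.44 (SE 0.61, 95% interval -2.79 to -0.10, edgeR adjusted p = 0.671, exact permutation p = 0.114). The library numbers in the labels fall into 2 unbroken series with a gap between, called runs here, each with 2 controls and 2 knockouts. The labels do not say what these runs stand for. The controls of the second run (3 and 4) had the higher Sis. On the scale of log2(CPM + 1), the knockouts minus controls difference of Sis was -0.87 in the first run and -2.10 in the second.

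Slc5a1, which brings glucose and galactose in with sodium, had 15.9, 12.1, 10.7 and 15.9 CPM in the controls and 8.85, 7.52, 3.76 and 11.6 CPM in the knockouts. Knockout 4, the highest knockout, lay above control 3, so the groups overlapped at that pair alone. The log2 fold change was -0.77 (SE 0.31, 95% interval -1.44 to -0.09, edgeR adjusted p = 0.662, exact permutation p = 0.0571). Slc2a2, whose transporter releases sugars on the blood side, had 6, 6, 7 and 0 counts in the controls and 7, 5, 0 and 1 in the knockouts, and a difference was not detectable at this depth. Lct, the milk sugar enzyme gene, had 3, 0, 5 and 2 counts in the controls and 0, 0, 3 and 1 in the knockouts, which likewise allows no comparison. Sis lies on chromosome 3 (72888557 to 72967863; ENSMUSG00000027790) and Lct on chromosome 1 (128284756 to 128328318; ENSMUSG00000026354), both on the reverse strand. Slc5a1 lies on chromosome 5 (33104219 to 33162870; ENSMUSG00000011034) and Slc2a2 on chromosome 3 (28697903 to 28731359; ENSMUSG00000027690), both on the forward strand.

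The promoters of both disaccharidase genes are given as well. Sis had at least 13 counts in every library and Lct at most 5, and the part of the promoter letters in these levels was not tested.
Sis, chr3:72967864-72968113, reverse strand: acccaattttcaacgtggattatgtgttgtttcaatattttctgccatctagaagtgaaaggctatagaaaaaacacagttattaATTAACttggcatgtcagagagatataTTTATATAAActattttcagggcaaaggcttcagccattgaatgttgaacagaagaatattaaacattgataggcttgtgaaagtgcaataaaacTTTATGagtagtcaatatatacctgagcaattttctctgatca
Lct, chr1:128328319-128328568, reverse strand: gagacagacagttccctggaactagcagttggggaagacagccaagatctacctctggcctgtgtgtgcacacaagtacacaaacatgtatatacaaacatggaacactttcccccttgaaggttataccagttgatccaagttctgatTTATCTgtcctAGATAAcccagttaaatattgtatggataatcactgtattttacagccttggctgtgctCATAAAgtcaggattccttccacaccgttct
In Sis, GTTAAT lay at 165 bases before the start and TTTATG at 43 bases. TTTATA, which reads TATAAA on the other strand, lay at 138 and again at 134 bases. Lct held AGATAA at 101 and at 90 bases and TTTATG at 31 bases. Lct and Slc2a2 were the 2 genes of the 9 with a Gata match in the window.

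The brush border enzymes Anpep and Alpi had their highest values in a knockout. Anpep, which trims amino acids from peptides, had 12.6, 17.1, 17.1 and 18.1 CPM in the controls and 9.44, 9.65, 14.0 and 25.9 CPM in the knockouts. Knockout 4 was above every control and knockouts 1 and 2 below every control, and the log2 fold change was -0.14 (SE 0.31, 95% interval -0.82 to 0.55, edgeR adjusted p = 0.985). It turned to 0.033 without knockout 1 and 0.023 without knockout 2, and was -0.57 without knockout 4. Alpi, whose enzyme detoxifies bacterial lipopolysaccharide, had 9, 17, 8 and 19 counts in the controls and 0, 0, 0 and 42 in the knockouts. Its 3 lowest knockouts were thus at 0, which allows up to 3 counts each for counting error only, and the fourth was the highest of all libraries (2.55 CPM against 0.564 to 1.50 CPM in the controls; exact permutation p = 0.229). Anpep (chromosome 7, 79821803 to 79861059; ENSMUSG00000039062) and Alpi (chromosome 1, 87098002 to 87101606; ENSMUSG00000079440) both lie on the reverse strand.

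**Figure D3:**
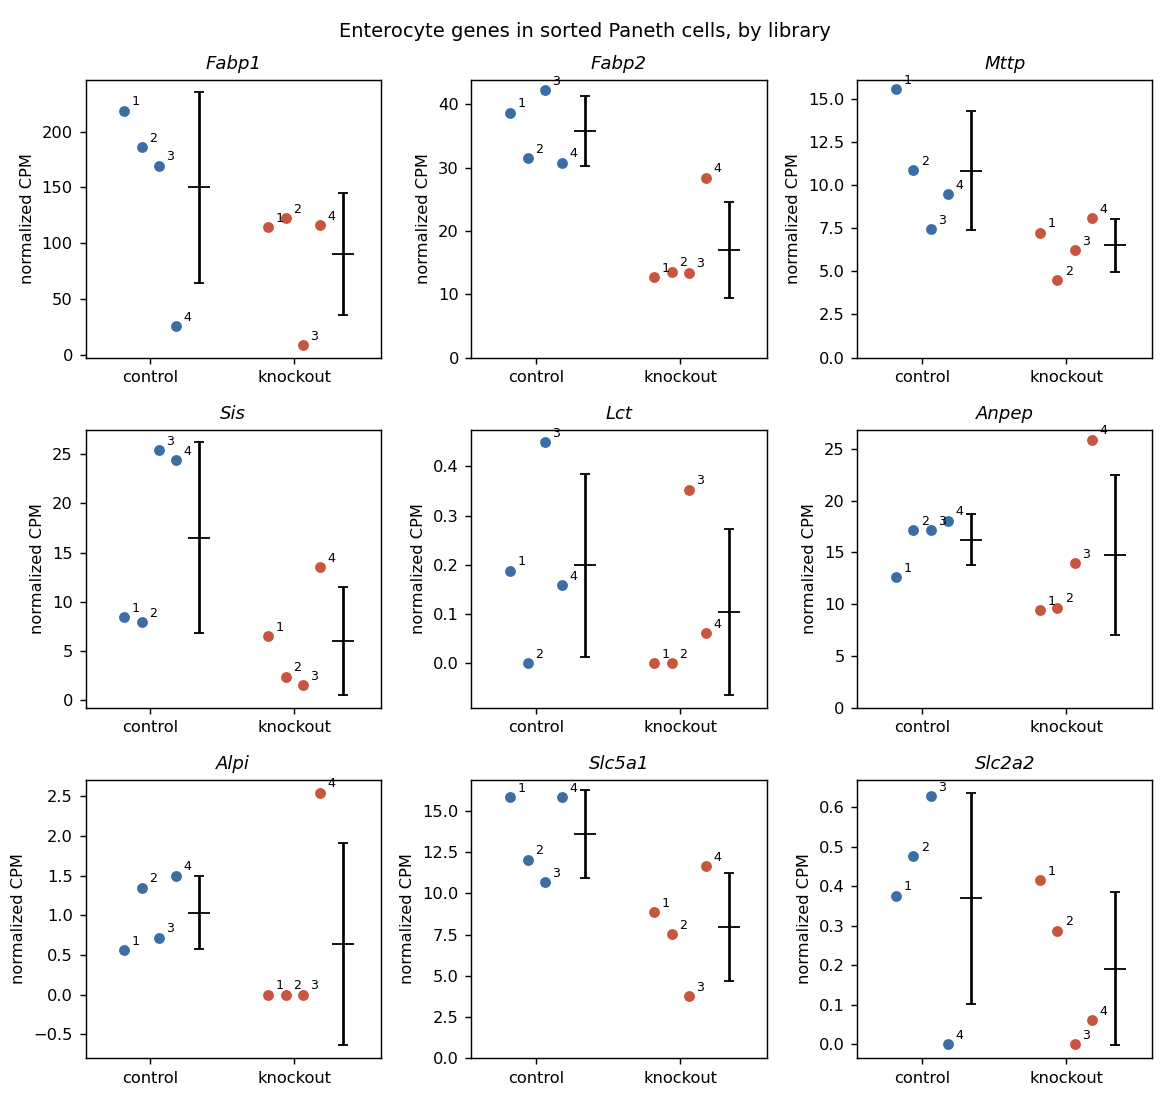
Normalized CPM of each of the 9 genes in controls (blue) and knockouts (red), on linear axes that differ between panels. Numbers beside points are the libraries, and the black bar gives the mean ± SD of the 4 libraries of a genotype. Fabp2 is the gene whose groups do not overlap, knockout 4 is the highest knockout for Fabp2, Mttp, Sis, Anpep, Alpi and Slc5a1, and Fabp1 is far lower in control 4 and knockout 3 than elsewhere.

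Knockout 4 thus lay above the other knockouts for Fabp2, Mttp, Sis, Anpep, Alpi and Slc5a1. The 8 genes other than Fabp1 summed to 92.2, 81.3, 105 and 100 CPM in the controls and to 45.1, 37.8, 39.2 and 90.3 CPM in the knockouts. With knockout 4 left out, 5 of the 9 genes did not overlap between groups (Fabp2, Mttp, Sis, Alpi and Slc5a1), all lower in the knockouts. Of the 13439 genes tested with all 8 libraries, 7.37% did not overlap in that split and 3.45% did so in that direction. Alpi is not among them. Knockout 4 is singled out here as the highest knockout of these genes, so leaving it out favours this result for them, and the shares are no like comparison. The median log2 fold change of the 6 genes tested was then -0.94, and it was -0.55 for the 7 tested with knockout 3 left out. With knockout 4 left out, 1 of the 9 genes, Fabp2, was called, where 0.123% of all genes tested were, and with knockout 3 left out 0 were, where 1.08% of all genes tested were.

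The same library carried genes of the ileum, the last stretch of the small intestine, where bile acids are taken back. Fabp6, the ileal bile acid binding protein, had 2, 0, 10 and 158 counts in the controls and 14, 41, 0 and 1251 in the knockouts. Slc10a2, the apical bile acid transporter, had 0 counts in all 4 controls and 14, 3, 0 and 65 in the knockouts, and Slc51a, a subunit of the basolateral one, had 12, 22, 2 and 4 and then 0, 8, 0 and 56. Knockout 4 was the highest library for each, and control 4, which had low Fabp1, was the second for Fabp6. The labels of these 2 libraries carry 1 animal number between them, although their genotypes differ, and its part in these values was not tested. Fabp6 had a log2 fold change of 2.57 (SE 2.08, edgeR adjusted p = 0.916) over all libraries of -1.58 without knockout 4 and of 5.94 without control 4, so 1 library set its direction. Slc10a2 and Slc51a were singled out after their values were seen, and the part of the intestinal segment in the differences between genotypes was not tested.

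**Figure D4:**
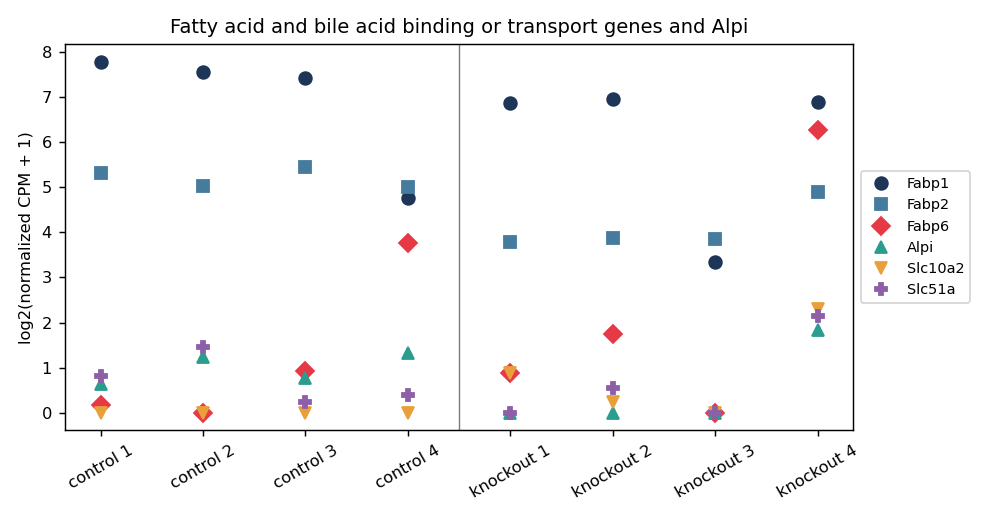
Log2(normalized CPM + 1) of Fabp1, Fabp2, Alpi and the bile acid genes Fabp6, Slc10a2 and Slc51a in each library, with controls left of the grey line. Fabp1 drops to 26.2 CPM in control 4 and 9.16 CPM in knockout 3, and Fabp6 rises to 75.9 CPM in knockout 4 and 12.5 CPM in control 4.

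Within each run of library numbers, all 6 genes tested had lower means in the knockouts in the first run, and 5 of 6 in the second, where Anpep was 0.11 higher on the scale of log2(CPM + 1). On this scale the difference of Fabp2 was -1.35 in the first run and -0.85 in the second. With 2 libraries of each genotype in a run, an exact permutation test within a run could not pass.

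Around the 9 genes, 84 further genes of digestion, uptake, the brush border and their regulators were examined in 9 lists, and 61 of them could be tested. None was called, while 7 had an unadjusted p under 0.05 in the edgeR fit, all 7 lower in the knockouts, where 6.88% of all genes tested had such a p and 2.53% had it as lower. When the 9 genes were counted in, DESeq2's Wald test and limma-voom each called 2 of the 67 tested, Fabp2 and Gata4, where they called 1.03% and 0.752% of all genes. With no filter edgeR called Slc10a2 beside Fabp2, where 0.783% of all genes were called. Slc10a2 was higher in the knockouts there (log2 fold change 7.15), with 0 counts in every control and 14, 3, 0 and 65 in the knockouts. Of the 61, 41 had lower and 20 higher fitted levels in the knockouts, with a median log2 fold change of -0.35 against 0.0085 over all genes tested. Without knockout 4 it was 53 of 63 with a median of -0.46, without knockout 3 it was 44 of 68 with a median of -0.21, and without control 2 it was 40 of 65 with a median of -0.16. The groups did not overlap for 3 of the 61 (Vil1, Slc28a2 and Gata4), all lower in the knockouts, where 4.52% of all genes tested did not overlap and 1.93% did so as lower in the knockouts.

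Gata4, a transcription factor of the proximal intestine, had 7.27, 8.73, 8.08 and 7.34 CPM in the controls and 2.79, 2.70, 4.11 and 3.88 CPM in the knockouts. The 2 groups lay well apart, with the highest knockout at 4.11 CPM and the lowest control at 7.27 CPM. The log2 fold change was -1.23 (SE 0.26, edgeR adjusted p = 0.144, and 0.00204 with DESeq2's Wald test, 0.0156 with limma-voom and 0.0248 with edgeR without knockout 3). Of the 8 transcription factors tested, 6 had lower and 2 higher fitted levels. Hnf4a, a master regulator of enterocyte genes, had 42.8 ± 4.94 CPM in the controls and 30.3 ± 6.90 CPM in the knockouts (SD, n = 4 each; edgeR adjusted p = 0.607), and Maf had 3.05 ± 0.833 and 3.58 ± 2.47 CPM (edgeR adjusted p = 0.981). The log2 fold change of Maf was 0.25 and turned to -0.30 without knockout 4, while those of Gata4 and Hnf4a moved by less than 1.5 times whichever library was left out.

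In the brush border structure, 8 of 9 genes tested had lower fitted levels. Vil1, which codes for the actin bundler villin, had 77.5, 90.4, 66.7 and 67.2 CPM in the controls and 60.4, 56.8, 55.4 and 52.9 CPM in the knockouts. Every knockout was below every control, by a modest margin (log2 fold change -0.42, SE 0.16, edgeR adjusted p = 0.589). Krt20 had a log2 fold change of -0.94 (SE 0.73, edgeR adjusted p = 0.910), and the exception in direction was Eps8, an actin capping protein gene, at 0.23 (SE 0.21, edgeR adjusted p = 0.925). With a library left out, Krt20 ran from -2.39 (without knockout 4) to -0.42 (without control 3) and Eps8 from 0.13 (without control 1) to 0.47 (without control 4).

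In lipid handling, 13 of 17 genes tested, the 3 described above among them, had lower fitted levels. Apoc3, an apolipoprotein gene, had 1.36 ± 0.828 CPM in the controls and 0.326 ± 0.269 CPM in the knockouts (SD, n = 4 each; edgeR adjusted p = 0.595), and the fatty acid activating enzyme gene Acsl5 hardly differed (log2 fold change -0.17, SE 0.19, edgeR adjusted p = 0.954; -0.30 without knockout 4 and -0.073 without knockout 1). Rbp2, which binds retinol in enterocytes, had 4.63, 0.804, 44.0 and 18.4 CPM in the knockouts against 5.52 to 13.6 CPM in the controls. Its highest library was knockout 3, where Fabp1 was lowest, so the 2 binding protein genes did not run in parallel. The log2 fold change of Rbp2 was 1.01 and turned to -0.069 without that library.

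Sugar handling was lower in 5 of 5 genes tested, Slc5a1 included, by fitted values that did not pass. Khk, which phosphorylates fructose, had a log2 fold change of -0.97 (SE 0.62, edgeR adjusted p = 0.869), which was -1.54 without knockout 4 and -0.62 without knockout 3. Fbp1, an enzyme gene of glucose synthesis, had 4.11 ± 2.12 CPM in the controls and 3.87 ± 1.16 CPM in the knockouts (SD, n = 4 each), and its log2 fold change lay between -0.32 (without control 1) and 0.29 (without control 4). Mgam, the other starch-splitting enzyme gene beside Sis, had a log2 fold change of -0.35 (SE 0.34, edgeR adjusted p = 0.934), between -0.57 without knockout 4 and -0.11 without control 1.

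The brush border peptidases and the uptake of iron, bile acids and vitamins did not share this direction. Of 9 peptidase genes tested, Anpep included, 5 had higher and 4 lower fitted levels, with a median log2 fold change of 0.32. Dpp4, which removes dipeptides, had 20.8 ± 5.31 CPM in the controls and 26.4 ± 11.3 CPM in the knockouts (SD, n = 4 each; edgeR adjusted p = 0.916), with a log2 fold change of 0.35 that was 0.028 without knockout 4. The fold changes of Mme and Enpep were 0.66 and -0.47 on the log2 scale, and single libraries moved them far: Mme to 1.61 without control 1 and 0.19 without knockout 1, and Enpep to -1.82 without knockout 4 and -0.10 without knockout 1. In the uptake list 3 of 5 were higher, and Cybrd1, an iron reductase gene, had a log2 fold change of -0.25 (SE 0.40, edgeR adjusted p = 0.972) that turned to 0.12 without control 4 and was -0.50 without control 1.

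Amino acid transporters were mixed, with 5 of 8 lower. Slc3a2 and Slc7a7, partners in basolateral export, had log2 fold changes of 0.10 and 0.38 (SE 0.30 and 0.64; edgeR adjusted p = 0.990 and 0.975), and Slc1a1 had one of -1.04 (SE 0.60, edgeR adjusted p = 0.840), with 42.6% of its exon bases shared with a gene on the opposite strand. Without knockout 3, Slc3a2 turned to -0.19 and Slc7a7 to -0.56. Villus tip markers split 2 and 2. Slc28a2, a nucleoside transporter gene, had 19, 10, 12 and 26 counts in the controls and 10, 4, 0 and 2 in the knockouts, with groups that did not overlap in CPM (log2 fold change -2.29, SE 0.72, edgeR adjusted p = 0.467). Clca4b and Ceacam20 had log2 fold changes of -0.82 and 0.65 (SE 0.76 and 0.96). Clca4b was at -0.040 without control 1 and -1.66 without knockout 4, and Ceacam20 at 2.59 without control 2 and 0.25 without control 3.

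**Figure D5:**
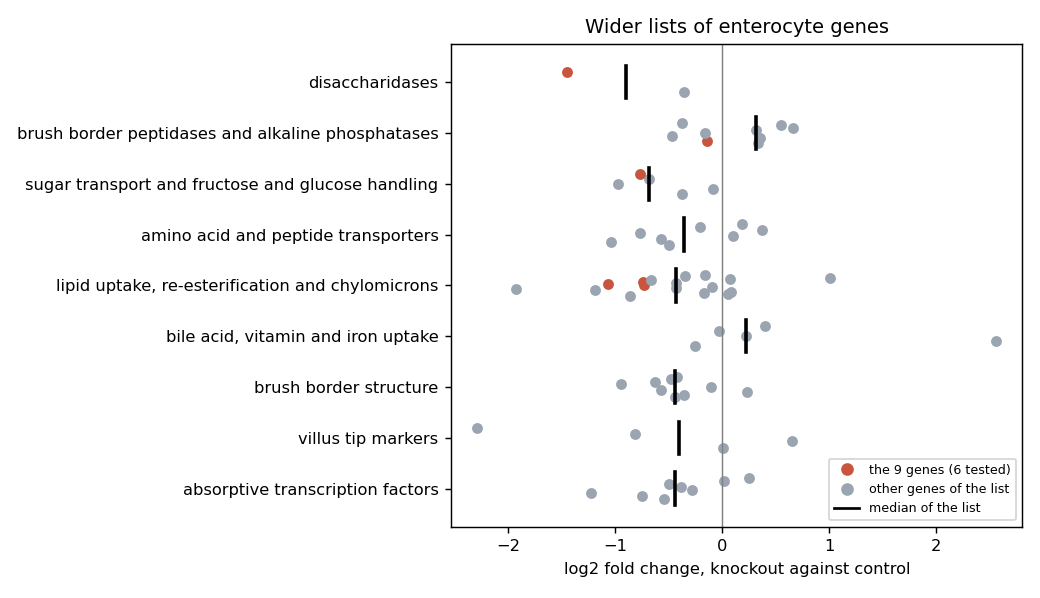
Log2 fold change, knockout against control, of the 67 genes tested in the 9 lists of enterocyte genes, with the 6 genes described above in red, other genes in grey and the median of each list as a black bar. The medians run from -0.90 for the 2 disaccharidase genes to 0.32 for the peptidases, and no gene was called.

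Across the 8 libraries, the genes most like the mean of the 6 (each scaled to its own spread) were Ttc17, Fhl2, Ccng1, Olfm1 and Abcg5, with Pearson r between 0.949 and 0.996 and Spearman rho between 0.714 and 1. These are the highest of all genes tested and a description of 8 points, in which all genes share the same libraries with their differences in depth and cell makeup. Without knockouts 2 and 3, the libraries farthest from the median of that mean, r was 0.997 for Ttc17 and 0.796 for Olfm1 over the other 6. Abcg5, a subunit of a sterol exporter, was in the lipid list.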

How the data were processed

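The 8 libraries of sorted Paneth cells were put in 2 groups by labelled genotype. Reads were aligned with GSNAP to mm10 and counted per gene with featureCounts 1.6.3 on Ensembl 92, and the deposited values are raw counts, not normalized by the authors. The strand setting was not given in the sources used here, and PCR copies were counted, so limits cover counting error only. Symbols were matched for 53620 of 53801 genes, and the 92 spike-in rows were left out.

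From the counts, edgeR 4.0.16 (R 4.3.3) computed TMM factors and robust quasi-likelihood fits for the 13439 genes that passed filterByExpr (minimum count 10, minimum total 15), with Benjamini-Hochberg adjustment over all of them. The SE was taken as the log2 fold change divided by the square root of F. Exact permutation tests used all 35 values that relabelling can give, on log2(CPM + 1). The 9 genes and the wider lists were chosen with earlier results of these data known. In the lists, the gene with the highest mean and those with the largest fold change in each direction were named, besides any called. A gene that this rule names entered the fits and counts but is not reported here. Replicate numbers are names and pair no libraries. The labels give each library an animal number, but 1 number stands for both control 4 and knockout 4, so p-values measure only the spread between these libraries. Alternatives were DESeq2 1.42.0, limma-voom (limma 3.58.1), other scalings and filters, a block for the run of library numbers, and each library left out. Every use of limma-voom here added sample quality weights, and it was not run without them. The fits were tested on simulated data.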

Additional observations from a re-analysis of the deposited data

Results flagged for a closer look

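Of 84 groups of 4 libraries looked at, 12 held a library that stood apart. Its gap to the nearest other library, as a share of the range of the group, was past Dixon's 95% limit. Chance gives about 1 in 20 for normally distributed values. The CPM used were not log-transformed and some were 0, so that rate need not hold here. Among the 9 genes, Fabp1 was lowest in knockout 3 (gap 0.9299 of the range; 9.16 CPM against at least 115), Fabp2 highest in knockout 4 (0.9466; 28.4 against at most 13.6 CPM), Anpep lowest in control 1 (0.8291; 12.6 against at least 17.1 CPM) and Alpi highest in knockout 4 (1; 2.55 CPM against 0).

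In the wider lists, Fabp6 stood out in control 4 (0.928; 12.5 CPM) and in knockout 4 (0.969; 75.9 CPM), and Krt20 in knockout 4 (0.853; 10.3 against at most 2.00 CPM). Slc7a7 was highest in control 3 (0.8842; 4.85 CPM) and in knockout 3 (0.8553; 8.11 CPM), Mme in control 1 (0.8388; 2.95 CPM) and Ceacam20 in control 2 (0.8579; 1.67 CPM). The summed Paneth markers were highest in knockout 3 (0.8673; 708593 against at most 310380 CPM). Knockout 4 held 4 of the 12 and knockout 3 held 3.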

How the results depend on the processing

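Over 16 alternatives, 89 of 96 fold changes of the 6 genes kept their direction and stayed not called. The Fabp2 call appeared under 4 of them, so the count of the 9 genes called, 0, became 1 with no filter, with DESeq2's Wald test, with limma-voom and without knockout 4 (0 to 1 with a library left out). Anpep ranged from -0.57 to 0.033 on the log2 scale with a library left out and was above 0 without knockout 1 (0.033) and without knockout 2 (0.023), and Fabp1 to 0.0044 with limma-voom. Genes with non-overlapping groups numbered 1 to 5 of the 9 with a library left out: 5 without knockout 4, 3 without control 3 (7.13% of all genes tested) and 2 without control 4. Over all genes, 25 calls became 290 with no filter and 13 with at least 10 counts in every library. They became 138 with DESeq2's Wald test and 101 with limma-voom with sample quality weights. At an adjusted p of at most 0.1 with no limit on the fold change there were 38, and 10 to 152 with a library left out (152 without knockout 3). The causes were not tested. The run of library numbers as a block gave 24 calls and 0 of the 9 genes. No paired analysis was possible because replicate numbers are names given in accession order. The study calls the mice littermates, and which of them share a litter is not given in the sources used here, so litters could tie controls to knockouts. Other scalings moved the median log2 fold change of all genes by at most 0.044. Depth limits Lct, Slc2a2 and Alpi.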
